A study of Mus musculus with 4 samples.

Results

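Within epithelial tumour cells of the mouse intestine that lacked a tuft cell marker, cells carrying the stem cell receptor Lgr5 were compared with cells lacking it. The comparison used 2 of the 4 arrays of the study, 1 for Lgr5+ tuft marker- cells and 1 for Lgr5- tuft marker- cells. A gene entered it when the scanner software called it well above background on at least 1 of these arrays, which held for 17527 of 22911 genes with a named probe. Both populations came from Lgr5CreERT2/+ mice in which both copies of Ctnnb1, the gene of beta-catenin, carried a loxP-flanked exon 3. They were taken 14 days after tamoxifen and were gated on the epithelial surface protein EpCAM. The tuft marker was IL17RB, a receptor subunit for the cytokine IL-25, and was absent by sorting from both populations. The tuft marker+ cells of the same tumours, again split into Lgr5+ and Lgr5-, gave the remaining 2 arrays and are used below as a second pair for the same Lgr5 contrast. The age, sex and number of the animals, the part of the intestine and the way Lgr5 was detected are not given in the sources used here.

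Tamoxifen activates the CreERT2 recombinase, and removal of exon 3 leaves a beta-catenin that is not marked for degradation, so that Wnt target genes stay switched on. Because the recombinase is driven by Lgr5, recombination starts in Lgr5-expressing cells at the crypt base. Whether the sorted Lgr5- cells had recombined is not given. In the normal small intestine, Lgr5+ stem cells sit between Paneth cells, which secrete antimicrobial defensins and lysozyme. Their daughters divide rapidly and then become absorptive enterocytes, goblet cells, enteroendocrine cells or tuft cells.

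Levels are given as log2 of the background-subtracted intensity over the 75th percentile of the array, so that a level of 0 is that percentile. All differences are Lgr5+ minus Lgr5- on this log2 scale, and a difference of 1 is 2-fold. With 1 array a group no difference could be tested and no p-value is given. The number of arrays limits the precision. The error beside a difference is that of the scanner's reading of the spots only, with a median of 0.21, and leaves out variation between animals, sorts and labelling reactions. The detection flag was set for 68.9% of spots on the Lgr5+ array and for 64.3% on the Lgr5- array, and no spot was saturated. Where a gene was not detected on the dimmer array, the difference bounds the true one from below and is written "at least".

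Of the genes behind the gates, Lgr5 followed its label. Smoc2 and Fabp1, which were not sorted on, are given beside it. Lgr5 stood at -0.80 in Lgr5+ tuft marker- cells and at -3.19 in Lgr5- tuft marker- cells, a difference of 2.39 (error 0.31) or 5.23-fold. Smoc2, a secreted calcium-binding protein of crypt base cells, stood at 0.02 and -1.55 on the same arrays, a difference of 1.57 (error 0.22), and its other probe gave 2.27. Fabp1, the fatty acid binding protein of enterocytes, ran the other way, with 2.85 in Lgr5+ cells, against 4.59 in Lgr5- cells (-1.74, error 0.20, 3.35-fold lower). Il17rb was well above background only on the Lgr5+ array, at -3.13, and was at least 0.58 higher there, which is within its error of 0.74. The other Il17rb probe gave 1.06, past 2-fold. In Lgr5+ and Lgr5- tuft marker+ cells Il17rb stood at -0.38 and 0.12. Epcam stood at 5.22 and 5.56 and Ctnnb1 at 4.96 and 5.23 in Lgr5+ and Lgr5- cells, so that both differed by less than 2-fold (-0.34 and -0.26). Where the Ctnnb1 probes lie relative to exon 3 is not known here, so they do not check the recombination. With the normexp setting, which took the median signal in place of the processed one, another background model and an added offset of 50, Lgr5 differed by 0.86 and Smoc2 by 0.91, each under 2-fold, while Fabp1 kept -1.59.

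**Figure D1:**
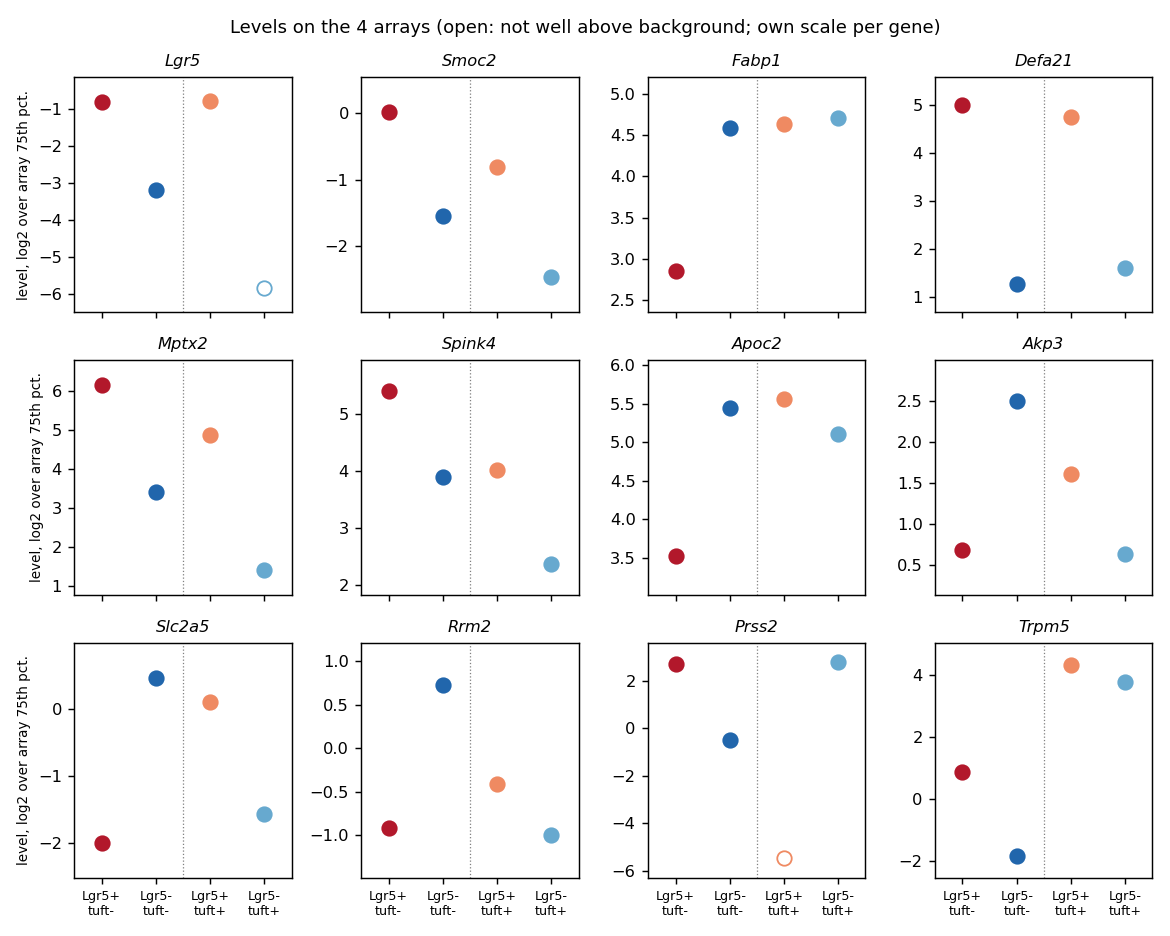
Level of 12 genes on each array (y axis: log2 intensity over the array's 75th percentile, own scale per gene; x axis: the populations, each 1 array, with the tuft marker- pair left of the dotted line). Lgr5, Smoc2, Defa21, Mptx2 and Spink4 are higher in Lgr5+ than in Lgr5- cells in both pairs, while Fabp1, Apoc2, Akp3, Slc2a5 and Rrm2 are at least 2-fold lower in Lgr5+ cells within tuft marker- only, and Prss2 is opposite in the 2 pairs; open points are not well above background.

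Across all 17527 genes, 1140 (6.5%) were at least 2-fold higher in Lgr5+ cells and 920 (5.25%) at least 2-fold lower. At least 4-fold differences were found for 139 genes (0.793%) and 99 genes (0.565%). The 25th and 75th percentiles of the differences were -0.39 and 0.43, and the 5th and 95th were -1.03 and 1.11. Of the genes past 2-fold, 373 of the higher and 221 of the lower were lower limits. Higher genes made up 55.3% of those past 2-fold, against 41.2% when arrays were scaled to their median and 44.4% with normexp, so the balance of the directions is not fixed by these data. Dim genes passed more often: of the 4382 dimmest genes, by mean level over both arrays, 18.5% were at least 2-fold apart, against 4.20% of the 4382 brightest. Where a second probe of a gene was above background on both arrays, it was also at least 2-fold higher for 22.8% of 127 genes called higher by their main probe and 2-fold lower for 17.8% of 208 called lower. It pointed the same way for 68.5% and 77.9% of them.

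Among genes well above background on both arrays, the largest differences towards Lgr5+ cells were those of Ren1, Defa21, Olfr521, Prss2, Defa2, Ang2, Siglecf, Gm17518, Pecr, Mptx1, Pnliprp1 and Iffo2. Ren1, the gene of renin, stood at 0.44 in Lgr5+ cells, against -3.32 in Lgr5- cells (3.76, error 0.35). Defa21 and Defa2 encode Paneth cell alpha-defensins, Ang2 an angiogenin-family ribonuclease and Mptx1 a mucosal pentraxin. Prss2 and Pnliprp1 encode pancreatic enzymes, and Siglecf a sialic acid-binding lectin found on tuft cells and eosinophils. The peroxisomal enoyl-CoA reductase gene Pecr (8.01-fold), the filament-family gene Iffo2 (2.94), the olfactory receptor gene Olfr521 (3.34) and the predicted gene Gm17518 (3.01) fell in none of the lists below. The other probe of Iffo2 gave 1.32. Among genes detected only in Lgr5+ cells, A930009A15Rik led with at least 3.40, followed by E130310I04Rik (at least 3.23), Pmis2 (at least 3.17), Afap1, an actin filament-associated protein (at least 3.14), and 4930571O06Rik (at least 2.92).

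Towards Lgr5- cells, the largest differences were those of Napg, Kdm3b, Rassf2, Ndc1, Crtap, C1ql4, Apoe, Serpinb5, Tyrobp, Pirt, Itgb2 and Car2. Napg, a vesicle fusion protein, stood at -3.78 in Lgr5+ cells, against -0.39 in Lgr5- cells (-3.39), but its other probe gave 0.05. Kdm3b, a histone demethylase, stood at -3.35 and -0.07 in the same order (-3.28), with 1 probe. Apoe, a lipid carrier made by macrophages and other cells, stood at 0.71 in Lgr5+ cells, against 3.43 in Lgr5- cells (-2.71), and its other probe gave -1.86. Tyrobp, an adaptor of myeloid and natural killer receptors, stood at -2.06 and 0.63 (-2.70), and Itgb2, the leukocyte integrin beta chain, at -1.23 and 1.34 (-2.58). Genes detected only in Lgr5- cells were led by Tlr12, a Toll-like receptor (at least -3.70), Olfr678 (at least -3.40), Cyp2c23 (at least -3.35), Cacng7 (at least -3.29) and Gm12426 (at least -3.28), where "at least" refers to the size.

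Of the crypt base stem cell genes, Lgr5, Smoc2, Sp5 and Igfbp4 were past 2-fold, the last pair towards Lgr5- cells. Of 36 genes on the list, 34 were measured, and 24 of these had a difference above 0. The median was 0.34, against 0.00 over all genes. At least 2-fold higher were 2 of 34, Lgr5 and Smoc2 themselves, against 6.5% of all genes, and 2 of 34 were at least 2-fold lower, against 5.25%. Next came Rgmb, a BMP co-receptor, with 0.20 in Lgr5+ cells, against -0.71 in Lgr5- cells (0.91, error 0.21). Lrig1, which restrains EGF receptor signalling, followed with 1.42 and 0.59 (0.83), although another of its probes gave 0.15. The transcription factor gene Sox9 stood at 3.25 and 2.58 (0.67, other probe 0.77). Gkn3, a gastrokine of crypt base cells, also differed by 0.67, Pdgfa by 0.76, and the RNA-binding protein gene Msi1 by 0.61 with another probe at -0.47.

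Ascl2, the transcription factor that acts with Wnt signalling in stem cells, was dimmer in Lgr5+ cells, at -1.92, against -1.35 in Lgr5- cells (-0.57, error 0.23). The Wnt feedback gene Axin2 stood at -0.44 and 0.25 (-0.68, other probe -0.43). Znrf3, which removes Wnt receptors from the surface, differed by -0.52 with another probe at 0.58, and its partner Rnf43 by -0.15. The Wnt target Sp5 stood at -2.53 in Lgr5+ cells, against -1.46 in Lgr5- cells (-1.07, error 0.26). Igfbp4, an insulin-like growth factor binding protein, was farthest in this direction, at -1.32 and 0.36 (-1.68, other probe -0.89). Ephb2 (0.05), Vdr (0.03), Phlda1 (-0.03) and Ephb3 (-0.08) differed by less than their reading error of about 0.20. The remaining members lay between 0.22 for Cd44 and 0.66 for Cdk6, a lower limit, except for Tgif1 (-0.59) and for Slc14a1, which was at the floor on both arrays.

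**Figure D2:**
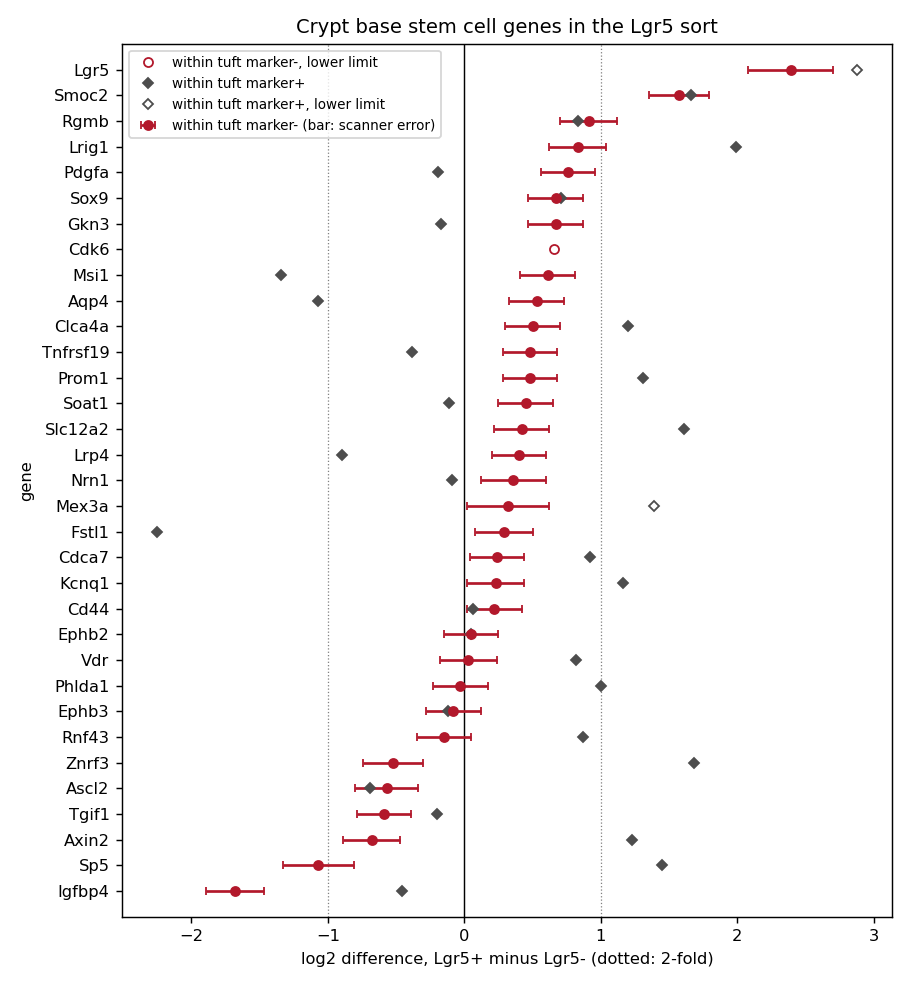
Log2 difference, Lgr5+ minus Lgr5- (x axis), of 33 crypt base stem cell genes (y axis) within tuft marker- cells (red, bar: scanner error of the reading) and within tuft marker+ cells (grey); open symbols are lower limits. Only Lgr5 and Smoc2 lie beyond 2-fold (dotted lines) to the right in both pairs, and Sp5 and Igfbp4 beyond 2-fold to the left within tuft marker-.

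On the wider list of Wnt and beta-catenin targets, 4 of 32 measured genes were at least 2-fold higher and 2 at least 2-fold lower, against 6.5% and 5.25% of all genes, with a median of 0.21. With normexp 1 was higher and 1 lower. The higher ones were Lgr5, the homeobox gene Prox1 (-0.63 in Lgr5+ cells, against -2.30 in Lgr5- cells, 1.67), the Wnt inhibitor gene Nkd1 (at least 1.18) and Mmp7, the protease that activates defensins (4.55 and 3.41, 1.13). Lower were Sp5 and Ccnd1, the gene of cyclin D1, with 0.99 in Lgr5+ cells, against 2.40 in Lgr5- cells (-1.41). Reserve stem cell markers had a median of 0.54 over 8 genes, all above 0, and 1 of them, Sox4, was past 2-fold (1.16).

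The clearest group in the comparison was the Paneth cell alpha-defensins, small antimicrobial peptides stored in granules at the crypt base. All 14 members with a probe were measured, and all 14 were at least 2-fold higher in Lgr5+ tuft marker- cells, where 6.5% of all genes were. The median was 2.55 and the range 1.23 to 3.71. Defa21 stood at 4.99 in Lgr5+ cells, against 1.28 in Lgr5- cells (3.71, error 0.20, 13.1-fold). Defa2 stood at 6.78 and 3.70 (3.08, other probe 2.44), and Defa39 at 5.49 and 2.65 (2.84). Defa38 (2.79), Defa29 (2.76), Defa42 (2.76), Defa43 (2.60), Defa26 (2.51) and Defa36 (2.44) lay close together. Defa23 differed least, with 8.84 in Lgr5+ cells, against 7.62 in Lgr5- cells (1.23, other probe 1.76). These genes are near-identical copies, so a probe of one can bind transcripts of another, and the 14 values are not independent. The alpha-defensin median was 2.57 with normexp, and all 14 stayed past 2-fold.

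Promoter sequence was available for 7 of the 14 measured alpha-defensins, credited to RefSeq on GRCm38.p6. The window ran from 250 bases before to 50 after the start of each gene. Stretches upstream of the start, all on chromosome 8, are shown because these genes moved together and because they differ in a short motif. Capitals mark CTTTGAT on either strand, the letters bound by the TCF factors through which beta-catenin acts. 
Defa21, chr8:21025424-21025537, + strand: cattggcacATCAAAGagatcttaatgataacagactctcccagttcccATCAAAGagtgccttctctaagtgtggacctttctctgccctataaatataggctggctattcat
Defa2, chr8:21378396-21378509, + strand: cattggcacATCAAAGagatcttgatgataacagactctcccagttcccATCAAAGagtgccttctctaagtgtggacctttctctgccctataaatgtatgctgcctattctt
Defa23, chr8:21054917-21055030, + strand: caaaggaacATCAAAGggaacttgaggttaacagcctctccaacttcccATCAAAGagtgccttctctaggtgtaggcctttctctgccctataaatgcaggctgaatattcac
Defa36, chr8:21427292-21427405, + strand: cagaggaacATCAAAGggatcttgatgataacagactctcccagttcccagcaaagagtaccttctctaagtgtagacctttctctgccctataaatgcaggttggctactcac
Defa38, chr8:21096101-21096214, - strand: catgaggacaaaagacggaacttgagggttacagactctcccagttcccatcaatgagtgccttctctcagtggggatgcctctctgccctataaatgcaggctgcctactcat
Defa42, chr8:21456568-21456681, - strand: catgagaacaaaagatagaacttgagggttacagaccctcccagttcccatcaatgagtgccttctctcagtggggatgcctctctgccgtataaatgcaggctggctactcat
The motif stood in 4 of the 7 windows (57.1%), with 2 copies in Defa21, Defa2 and Defa23 and 1 in Defa36, against 3.73% of all 32851 windows. Defa38, Defa42 and Defa43 had none, and the stretches of Defa42 and Defa43 were identical. Both kinds were among the higher genes: Defa21 and Defa2 with the motif led the list, while Defa23 with it came last, and Defa38 without it differed by 2.79. All 7 windows held TATAAA, against 13.6% of all windows. Identity between the 7 stretches ran from 74.6% to 100%, so the shared letters are not independent observations.

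Other Paneth cell products followed in the same direction. Of 24 measured, 12 were at least 2-fold higher and none was lower, against 6.5% and 5.25% of all genes, with a median of 1.04. The list shares Clps with the pancreatic acinar genes and Ang4 with the goblet products. The pentraxin gene Mptx2 stood at 6.16 in Lgr5+ cells, against 3.41 in Lgr5- cells (2.74), and Mptx1 at 2.08 and -0.91 (2.99). The angiogenin-family ribonucleases, Ang4 with 2.99 and 0.38 (2.61) and Ang6 with 4.18 and 1.76 (2.42), were higher as well. The hyaluronan-binding protease gene Habp2 differed by 2.57, with another probe at 1.17. The lysozyme genes Lyz1 (1.18) and Lyz2 (1.35), chosen after their values were seen, stood at 5.81 and 2.61 in Lgr5+ cells, against 4.63 and 1.26 in Lgr5- cells. Not all members moved: the antimicrobial lectin gene Reg3g stood at 8.33 and 8.39 (-0.06), and Guca2b, a peptide regulating fluid secretion, at 2.59 and 2.78 (-0.19). Of the 7 Reg lectins, only Reg2 was past 2-fold, at 1.95, and it is also known from the pancreas.

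Goblet cell products had a median of 0.81. Of 30 measured, 9 were at least 2-fold higher and none 2-fold lower, against 6.5% and 5.25% of all genes. With normexp, 6 were higher and the median was 0.58. Spink4, a protease inhibitor of goblet cells, stood at 5.40 in Lgr5+ cells, against 3.89 in Lgr5- cells (1.51). Retnlb, a bactericidal secreted peptide, stood at 3.16 and 1.37 (1.79). Ern2, the stress sensor of mucus-secreting cells, stood at 2.12 and 0.74 (1.37), and its other probe gave 1.40. Hpd differed by 1.45, Tpsg1 by at least 2.14. St6gal1 was farthest the other way, at -0.49. Enteroendocrine products had a median of 0.21. At least 2-fold higher were 2 of 32, Nkx2-2 (1.61, other probe 0.08) and Insm1 (1.05), against 6.5% of all genes. At least 2-fold lower were 6, against 5.25% of all genes. Farthest was the neurotensin gene Nts, with -3.14 in Lgr5+ cells, against -1.10 in Lgr5- cells (-2.04). With normexp, none was higher and 2 were lower, with a median of -0.05.

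**Figure D3:**
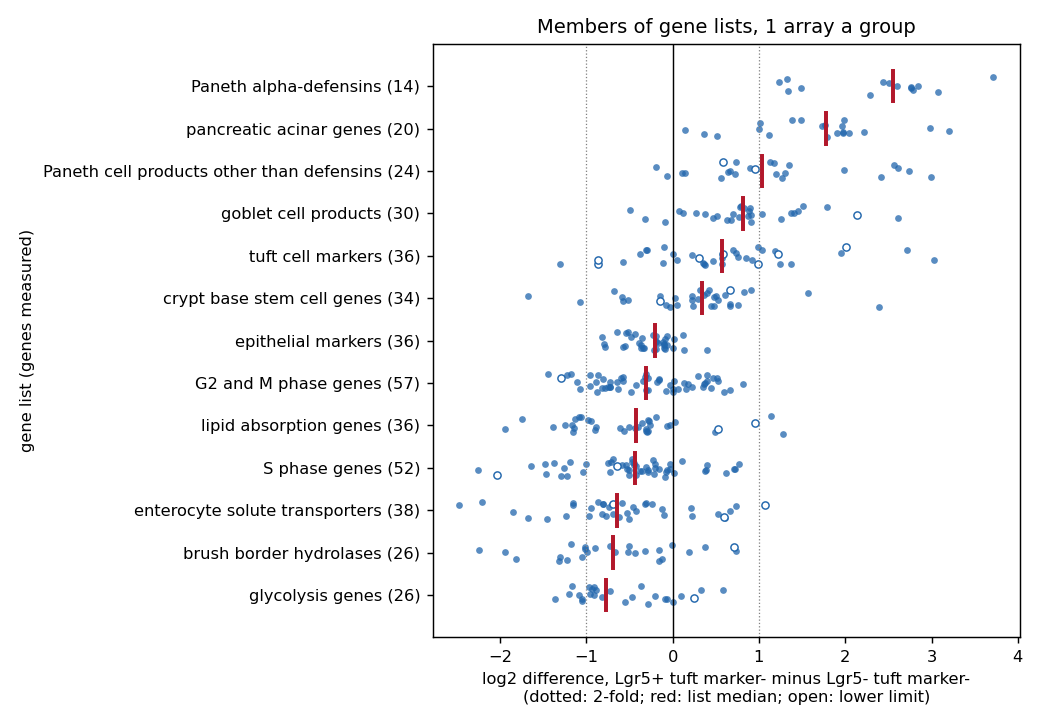
Log2 difference, Lgr5+ tuft marker- minus Lgr5- tuft marker- (x axis), for each measured member of 13 gene lists (y axis, number measured in brackets). Points are genes, open points lower limits, red bars list medians; all 14 alpha-defensins lie right of the 2-fold line, while brush border hydrolases, with a median of -0.69, have 10 of 26 left of it.

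Enterocyte genes ran against the Paneth and goblet genes. Of 36 lipid absorption genes, 10 were at least 2-fold lower in Lgr5+ cells and 2 higher, against 5.25% and 6.5% of all genes, with a median of -0.42. Apoc2, a lipoprotein cofactor, stood at 3.52 in Lgr5+ cells, against 5.45 in Lgr5- cells (-1.94, other probe -1.01). Fabp2, the intestinal fatty acid binding protein, stood at 4.28 and 5.67 (-1.39), and Rbp2, which carries retinol in enterocytes, at 2.98 and 4.11 (-1.14). The acyl-CoA synthetase gene Slc27a2 ran the other way, with 0.55 in Lgr5+ cells, against -0.74 in Lgr5- cells (1.28).

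Brush border hydrolases, the digestive enzymes of the microvillus membrane, had a median of -0.69. Of 26 measured, 10 were at least 2-fold lower and none 2-fold higher, against 5.25% and 6.5% of all genes. Akp3, an intestinal alkaline phosphatase, stood at 0.68 in Lgr5+ cells, against 2.50 in Lgr5- cells (-1.82, other probe -1.97). Asah2, a ceramidase, stood at -2.11 and 0.13 (-2.24, other probe -0.71). Alpl (-1.94), Cndp2 (-1.32) and the gamma-glutamyltransferase gene Ggt1 (-1.31) came next, and the esterase gene Ces1f was farthest the other way (0.73). Solute transporters of enterocytes had a median of -0.65. Of 38 measured, 8 were at least 2-fold lower and 1 higher, against 5.25% and 6.5% of all genes. The fructose transporter gene Slc2a5 stood at -2.0 in Lgr5+ cells, against 0.47 in Lgr5- cells (-2.47, error 0.23, 5.53-fold lower). The iron importer gene Slc11a2 stood at 1.44 and 3.11 (-1.67, probes from -1.67 to -0.52) and the iron exporter gene Slc40a1 at 0.58 and 2.03 (-1.45). The manganese transporter gene Slc30a10 differed by -2.21 and the amino acid transporter subunit gene Slc3a1 by -1.85. With normexp, 5 lipid absorption genes, 4 brush border hydrolases and 4 transporters were past 2-fold lower, with medians of -0.32, -0.50 and -0.38.

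Genes typical of the proximal small intestine had a median of -0.85, and of -0.46 without a detection filter. At least 2-fold lower were 6 of 12, against 5.25% of all genes. The list shares Fabp1, Rbp2 and Slc40a1 with those above, and its farthest member was Cybrd1, a ferric reductase, with -1.80 in Lgr5+ cells, against 0.31 in Lgr5- cells (-2.12, other probe -2.41). Ileal and colonic genes had a median of 0.62 over 13 measured genes, against 0.10 with normexp and 0.19 with the mean of all probes. At least 2-fold apart were 4 higher and 2 lower, against 6.5% and 5.25% of all genes. Among the higher ones were Mptx1, Retnlb and the water channel gene Aqp8 (-0.27 in Lgr5+ cells, against -2.53 in Lgr5- cells, 2.26). Microvillus structure genes had a median of -0.29, with 4 of 22 at least 2-fold lower, against 5.25% of all genes, farthest Pdzk1 (-1.50). With normexp none of them was 2-fold lower, and with the mean of all probes 1 was. Enterocyte transcription factors had a median of -0.12, and 2 of 31 were at least 2-fold lower, against 5.25% of all genes. Their 2 lower members were Maf (-2.12), which macrophages also express, and the lipid-sensing receptor gene Ppara, at -1.08 with another probe at 0.66. Hnf4a differed by -0.79.

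The promoter of Fabp1, the gene that marks the Lgr5- side, is shown with the letters TTTATNG, which CDX homeobox factors of the gut bind, in capitals on either strand (RefSeq, GRCm38.p6).
Fabp1, chr6:71199759-71199868, + strand: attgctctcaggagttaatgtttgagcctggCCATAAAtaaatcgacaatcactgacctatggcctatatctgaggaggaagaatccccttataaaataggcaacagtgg
These letters stood in 10.9% of all windows, in 8 of 30 windows of measured lipid absorption genes (26.7%) and in 5 of 28 windows of brush border hydrolases (17.9%). They also stood in 5 of 7 alpha-defensin windows (71.4%), genes that differed in the opposite direction. Where the alpha-defensin stretches printed above hold a match, it reads CTATAAA and so contains the TATAAA letters already counted. These matches are therefore not separate from the TATAAA count, and binding of CDX factors there was not tested.

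Genes of DNA replication past 2-fold were all on the lower side. Of 52 S phase genes, 12 were at least 2-fold lower, against 5.25% of all genes, and none was 2-fold higher, with a median of -0.44 and 9 members above 0. Rrm2, a subunit of ribonucleotide reductase, stood at -0.91 in Lgr5+ cells, against 0.73 in Lgr5- cells (-1.64). Gins4, part of the replicative helicase, stood at -1.06 and 0.41 (-1.47, other probe -1.75). The polymerase gene Pole stood at -3.55 and -1.28 (-2.26), and the primase gene Prim2 differed by at least 2.04 in the same direction. Ccne1, the gene of cyclin E, was farthest the other way, at 0.77. The E2F letters TTTCCCGC stood in 6 of 49 windows of measured S phase genes (12.2%) and in 4 of 31 windows of crypt base stem cell genes (12.9%), a list with a median above 0, against 1.07% of all windows. Of 57 genes of G2 and M phase, 6 were at least 2-fold lower and none higher, against 5.25% and 6.5% of all genes. Their median was -0.31. Ccna2, the gene of cyclin A, stood at 0.60 in Lgr5+ cells, against 1.77 in Lgr5- cells (-1.18, other probe -0.89). Knl1 (-1.44, other probe -0.22), Melk (at least 1.29 lower), Bub1 (-1.22) and Mad2l1 (-1.11, other probe -0.36) act at the spindle or in mitosis, and Aurkb ran the other way (0.82, other probe -0.02). With normexp, 4 S phase genes and none of the G2 and M phase genes were past 2-fold lower.

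Against 5.25% and 6.5% of all genes, 6 of 26 glycolysis genes were at least 2-fold lower and none higher, with a median of -0.77. The pyruvate kinase genes Pklr, with 2.07 in Lgr5+ cells, against 3.43 in Lgr5- cells (-1.36), and Pkm, with 4.89 and 5.97 (-1.08, other probe -1.30), were among them. The lactate exporter gene Slc16a3 differed by -1.17, Hk1 by -1.20 with another probe at 0.06, and Hk3 was farthest the other way (0.58). The glycolysis count was 12 with arrays scaled to their median and 2 with normexp. Oxidative phosphorylation subunits moved little but together: 1 of 74 lay above 0, the median was -0.43, and none was past 2-fold. Cycs, the gene of cytochrome c, stood at 2.75 in Lgr5+ cells, against 3.66 in Lgr5- cells (-0.91). Ribosome biogenesis genes had a median of -0.35 (3 of 50 lower, none higher) and cytoplasmic ribosomal proteins -0.16 (none of 78 past 2-fold). The share of lower ribosome biogenesis genes was near the 5.25% of all genes, and none was 2-fold lower with normexp. Epithelial markers, which all cells of the gate should carry, had a median of -0.21 and none of 36 past 2-fold. In a sorted population, fewer cells of a type and less RNA per cell cannot be told apart.

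Markers of other cell types also differed between the arrays. Tuft cell markers, depleted from both populations by the sort, had a median of 0.57. Of 36 measured, 9 were at least 2-fold higher and 1 lower, against 6.5% and 5.25% of all genes. The taste channel gene Trpm5 stood at 0.88 in Lgr5+ cells, against -1.83 in Lgr5- cells (2.71), Siglecf at -0.37 and -3.41 (3.03, other probe 1.75) and Plcg2 at 0.48 and -0.90 (1.37). Plcb2, a phospholipase of taste signalling, was 1.95 higher, but differed by -0.15 when all its probes were averaged. The level of Trpm5 was 4.35 and 3.80 on the tuft marker+ arrays. Summed over the list, the linear levels, in units of the array's 75th percentile, were 75.3 in Lgr5+ and 69.4 in Lgr5- cells, against 320 and 333 in the tuft marker+ populations, and 4 members were not above background on either array. With normexp, 3 tuft markers were past 2-fold higher and none lower.

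Myeloid markers had a median of -0.41. Of 21 measured, 6 were at least 2-fold lower in Lgr5+ cells and 2 higher, against 5.25% and 6.5% of all genes. Besides Tyrobp, the lower ones were led by Aif1, a macrophage calcium-binding protein (-2.44 in Lgr5+ cells, against -0.37 in Lgr5- cells, -2.07). Adgre1, which encodes the macrophage antigen F4/80, followed (at least 1.66 lower). Mrc1, a macrophage lectin, ran the other way (at least 1.82). With normexp, 2 myeloid markers were past 2-fold lower and 1 higher. The summed level was 827 in Lgr5+ and 909 in Lgr5- cells, against 1060 and 1200 in the tuft marker+ populations. The median level of the list was -1.69 in Lgr5+ and -0.37 in Lgr5- cells, against 2.47 and 3.31 in the Lgr5+ and Lgr5- tuft marker+ populations, so a few bright members carried the sum. T and NK cell markers had a median of 0.36 over 14 measured genes. At least 2-fold apart were 1 higher and 2 lower, against 6.5% and 5.25% of all genes. The lower ones were the cytotoxic granule genes Gzma (-1.82) and Gzmb (at least 2.55 lower), and the higher one was Klrk1 (at least 1.21). Zap70 (0.81), Lck (0.76), Prf1 (0.74) and Cd3e (0.66) were above 0 but under 2-fold. Over 9 other processing settings, Lck ran from -0.26 to 0.83. On this list 6 members, Cd3d and Cd3g among them, were not above background on either array. Stromal and endothelial markers had a median of -0.02 over 15 measured of 24, with Col3a1 farthest (-1.01). B and plasma cell markers (median -0.27, none of 9 past 2-fold), innate lymphoid and mast cell markers (-0.08) and erythroid markers (0.03) showed no common direction.

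Pancreatic acinar genes, which encode digestive enzymes of the pancreas, were higher in Lgr5+ tuft marker- cells, with a median of 1.78. Of 20 measured, 16 were at least 2-fold higher and none was lower, against 6.5% and 5.25% of all genes. Prss2, a trypsinogen, stood at 2.71 in Lgr5+ cells, against -0.49 in Lgr5- cells (3.20, error 0.21). Pnlip, pancreatic lipase, stood at 1.66 and -0.56 (2.22), and Cpb1, a carboxypeptidase, at 2.01 and -0.02 (2.04). Pnliprp1 differed by 2.98, the colipase gene Clps by 1.98, and Prss1 differed least, at 0.14. The summed level was 176 in Lgr5+ and 72.8 in Lgr5- cells, and 30.5 and 176 in the Lgr5+ and Lgr5- tuft marker+ populations, so it did not follow Lgr5 across the 4 arrays. The part of these and of the tuft and myeloid markers in the differences of the other genes was not tested.

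The Lgr5 contrast was repeated in the tuft marker+ cells, on arrays that the first pair does not share. Both pairs measured 16497 genes. Of these, 120 (0.727%) passed 2-fold towards Lgr5+ cells in each pair, which is 11.4% of those higher within tuft marker- and 8.02% of those higher within tuft marker+. Of all genes measured in both pairs, 9.07% were higher within tuft marker+, so the first share is near that of all genes. At least 2-fold lower in both were 96 genes (0.582%), 11.6% of those lower within tuft marker- and 5.25% of those lower within tuft marker+, where 11.1% of all these genes were lower. More genes ran in opposite directions: 300 (1.82%) were higher within tuft marker- and lower within tuft marker+, and 107 (0.649%) the reverse. Over the 14055 genes above background on all 4 arrays, the differences of both pairs had a Pearson r of -0.28, a description across genes, which are not independent replicates and share their arrays.

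Towards Lgr5+ cells, the Paneth group recurred. The 10 genes with the largest difference shared by both pairs were Defa21 (3.71 within tuft marker- and 3.13 within tuft marker+), Defa2 (3.08 and 3.40), Ang2 (3.04 and 2.99), Mptx1, Mptx2 (2.74 and 3.45), Defa38, Defa42, Defa43, Defa26 and Defa36. Each of the 14 alpha-defensins passed 2-fold in the second pair too, with medians of 2.55 and 2.28. Of 23 other Paneth products measured in both, 7 were higher in both, and of 29 goblet products 4, against 0.727% of all genes. On each of these 2 lists, 1 gene was at least 2-fold apart in opposite directions. Smoc2 repeated its difference (1.57 and 1.66), as did Lgr5 (2.39 and at least 2.88). Fabp1 did not, with -1.74 within tuft marker- and -0.07 within tuft marker+. The 10 largest differences shared in the lower direction were those of the granzyme genes Gzma (-1.82 and -2.94) and Gzmb, the splicing factor gene Prpf4 (-1.85 and -1.77), Alpl (-1.94 and -2.24), Saa3, Ptx3, Tarm1, Nts, Abi3 and Cacng7.

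**Figure D4:**
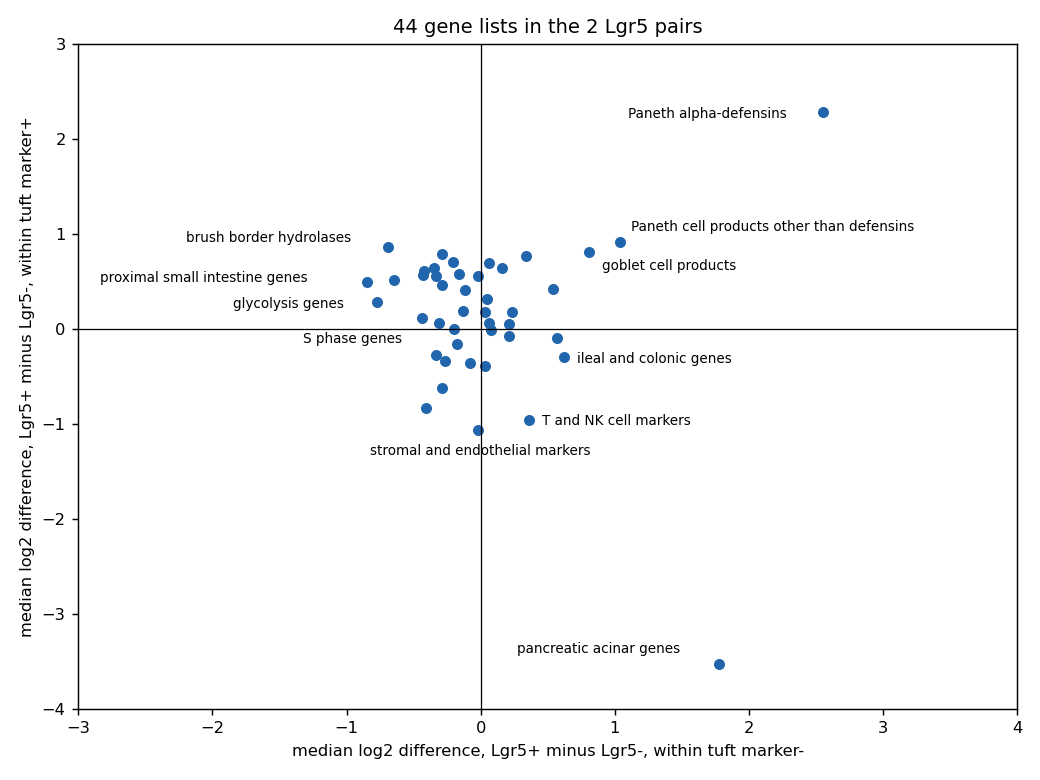
Median log2 difference, Lgr5+ minus Lgr5-, of 44 gene lists within tuft marker- cells (x axis) and within tuft marker+ cells (y axis); each point is 1 list. Alpha-defensins (2.55 and 2.28), other Paneth products and goblet products are above 0 in both pairs, brush border hydrolases (-0.69 and 0.86) change sign, and pancreatic acinar genes stand at 1.78 and -3.53.

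The enterocyte and housekeeping lists did not recur. Lipid absorption genes, with the tuft marker- value first, had medians of -0.42 and 0.61, solute transporters -0.65 and 0.51, and oxidative phosphorylation subunits -0.43 and 0.57. S phase genes had medians of -0.44 and 0.12, with 12 of 52 lower in the first pair and 7 of 51 higher in the second. Epithelial markers stood at -0.21 and 0.70. Crypt base stem cell genes were on the same side in both pairs, with medians of 0.34 and 0.77, and 11 of 32 were at least 2-fold higher within tuft marker+, where 8.92% of all genes were. The Wnt feedback genes Axin2 (-0.68 and 1.23), Znrf3 (-0.52 and 1.68) and Sp5 (-1.07 and 1.45) had opposite signs, while Nkd1 was higher in both (at least 1.18 and at least 2.05). Within tuft marker-, the value of Znrf3 ran from -0.63 to 0.01 over 9 other processing settings. Over the Wnt target list, 3 of 32 genes passed 2-fold upwards in each pair and 1 was opposite. The difference between the pairs was not tested, since each population had 1 array.

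Several lists held both directions. Fetal-like and regenerative genes had a median of -0.33. Of 22 measured, 6 were at least 2-fold lower and 1 higher, against 5.25% and 6.5% of all genes. Anxa1 stood at -3.76 in Lgr5+ cells, against -1.80 in Lgr5- cells (-1.96, other probe -1.84), and the surface antigen gene Ly6a at 0.98 and 2.57 (-1.59), while the matricellular gene Ccn1 ran the other way (0.42 and -1.22, 1.64). Among interferon response genes (median -0.20), 2 of 37 were higher and 3 lower, shares near those of all genes, and none was past 2-fold with normexp. Ifit3 differed by 2.38 and Ifit1 by at least 1.61 in the opposite direction. Notch pathway genes had a median of 0.03, the ligand gene Dll4 at 1.27 and Jag2 at least 1.69 lower. BMP and TGF-beta response genes had a median of -0.18. Of 23 measured, 4 were at least 2-fold lower, against 5.25% of all genes, Msx1 (-1.30) and the receptor gene Tgfbr2 (-1.24) among them. None of the 23 was past 2-fold with normexp. Cytochrome P450 and retinoid genes had a median of -0.13. Of 36 measured, 3 were at least 2-fold higher and 7 lower, against 6.5% and 5.25% of all genes. Among the lower ones was Cyp2c66 (-0.49 in Lgr5+ cells, against 0.79 in Lgr5- cells, -1.29). With normexp, none of this list was higher and 1 was lower.

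Dissociation stress genes had a median of 0.23 and 1 of 28 past 2-fold, Ier3 (-1.25), and Fos stood at 3.22 in Lgr5+ cells, against 2.70 in Lgr5- cells (0.52). Cholesterol synthesis genes had a median of -0.33, with 3 of 24 above 0 and none past 2-fold. Fatty acid oxidation and ketogenesis genes had a median of -0.29, with Vnn1 farthest (-1.52). Of 34 measured, 4 were at least 2-fold lower, against 5.25% of all genes, and 1 was with normexp. MHC class II presentation genes had a median of -0.29 over 10 genes. Medians of the unfolded protein response genes (-0.02), cell cycle inhibitors (0.06), Eph receptors and ephrins (0.05), Reg lectins (0.08), villus tip genes (0.06) and villus base genes (0.16) were within 0.16 of 0.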

How the data were processed

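RNA of each sorted population was measured on 1 one-colour Agilent array. Per the labels' protocols, 13 ng of total RNA was amplified and labelled with Cy3. Per the file headers, the deposited intensity values were background-subtracted and detrended by Agilent Feature Extraction 12.0.3.1, whereas version 11.5.1.1 is named in the submitters' processing notes. The deposited files also hold the software's error per spot and its detection flags, other values of 0 or 1. The authors deposited a table of further intensity values, which equalled the scanner's processed intensity times 1 constant per array (7.82 for Lgr5+ tuft marker-, 9.08 for Lgr5- tuft marker-); its scale was linear and not centred, with column medians of 286 and 253. All 4 arrays lay on 1 slide read in 1 scan.

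From these, 96 and 91 outlier spots and all control spots of the pair were left out, log2 was taken and the 75th percentile of each array subtracted. Of 56604 probes, 32994 were named through a RefSeq gene table (GRCm38.p6) and gave 22911 genes. A gene was represented by its brightest probe over the arrays. Values below the array's lowest level among well-above-background probes (-3.86 and -3.71) were raised to it. Copies of 300 probes spotted 10 times had a median SD of 0.05 and 0.06. The members and 44 gene lists were chosen with earlier results of these data known. Named were Lgr5, Smoc2, Fabp1, Il17rb, Epcam and Ctnnb1, and the 12 highest and 12 lowest genes on both arrays. Also named were the 5 largest limits each way, and up to 5 members of each list with its direction and 1 against it. All measured crypt base stem cell genes, and the 10 largest differences each way shared by both Lgr5 pairs, were named too. Computation used Python 3.11.15, pandas 2.3.3 and, for normexp, limma 3.58.1. Normexp was run on the median signal, since no mean signal was used here. The calculation was tested on simulated intensities. Scaling, background, detection, probe and floor choices were varied. A few genes that the rule picks are not reported here.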

Additional observations from a re-analysis of the deposited data

Results flagged for a closer look

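The following results pointed in opposite directions in the tuft marker- and tuft marker+ pairs. The difference between the pairs was not tested, since each population had 1 array. Of the 44 gene lists, 13 had medians beyond 0.25 in both pairs with opposite signs. Given as within tuft marker- and then within tuft marker+, these were lipid absorption genes (-0.42 and 0.61), brush border hydrolases (-0.69 and 0.86) and enterocyte solute transporters (-0.65 and 0.51). Microvillus structure genes (-0.29 and 0.79) and proximal small intestine genes (-0.85 and 0.49) behaved alike. So did ribosome biogenesis genes (-0.35 and 0.64), oxidative phosphorylation subunits (-0.43 and 0.57), fatty acid oxidation genes (-0.29 and 0.46), glycolysis genes (-0.77 and 0.28) and cholesterol synthesis genes (-0.33 and 0.56). The reverse held for ileal and colonic genes (0.62 and -0.30, the first 0.10 with normexp), T and NK cell markers (0.36 and -0.96) and pancreatic acinar genes (1.78 and -3.53).

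Among the named genes, 22 were at least 2-fold apart in both pairs in opposite directions, 15 of them higher and 7 lower within tuft marker-. Pancreatic genes had the largest such differences: Prss2 (3.20 within tuft marker- and -6.21 as a limit within tuft marker+), Pnliprp1 (2.98 and -3.46 as a limit), Pnlip (2.22 and -5.61 as a limit), Cpb1 (2.04 and -6.05 as a limit) and Reg2 (1.95 and -6.33 as a limit). Other genes higher within tuft marker- and lower within tuft marker+ were Olfr521 (3.34 and -2.20), Ifit3 (2.38 and -2.13), Aqp8 (2.26 and -1.32) and Dll4 (1.27 and -1.11). In this direction, limits on 1 or both sides were found for E130310I04Rik (3.23 and -1.22), Pmis2 (3.17 and -1.26), Mrc1 (1.82 and -1.56), Klrk1 (1.21 and -1.37) and Slc5a4a (1.07 and -1.68). H2-Ob, an MHC class II gene, stood at 1.04 and -1.49, but at -0.47 within tuft marker- with the mean of all probes. Lower within tuft marker- and higher within tuft marker+ were the transporter genes Slc2a5 (-2.47 and 1.67), Slc30a10 (-2.21 and at least 2.19) and Slc3a1 (-1.85 and at least 2.21). The same held for Gins4 (-1.47 and 1.44), Sp5 (-1.07 and 1.45), and, as limits, Prim2 (-2.04 and 1.13) and Melk (-1.29 and 1.07).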

How the results depend on the processing

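No paired analysis was possible because each population had 1 array. Of 167 named genes at least 2-fold apart, 160 to 165 stayed so under the 4 other scalings, 81 with normexp and 142 with the mean of all probes. All 167 kept their direction except Cyp2b10 (-0.15), H2-Ob (-0.47) and Plcb2 (-0.15), all with the mean of all probes. With normexp, the counts past 2-fold were 132 higher and 165 lower, 34 were higher and 9 lower in both Lgr5 pairs, and the acinar median was 1.38; this setting changed input signal, background model and offset together, and the cause was not tested. With the looser detection flag, 2326 genes were higher and 1709 lower, 216 higher and 358 lower in both pairs, over 21626 genes. Without a floor, 172 were lower in both. With no detection filter, the medians of ileal and colonic genes and of T and NK cell markers were -0.15 and -0.05, values set by members at the floor. Scaling to the median moved all differences down, with a median of -0.15 in place of -0.04 over genes on all 4 arrays. Signal near background limits the dimmest genes.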
